A study of Homo sapiens with 5 samples.

Results

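The nuclear genes of respiratory chain complexes I, III and IV were followed across 5 arrays of TF-1 cells. TF-1 is a human line established from an erythroleukaemia, with erythroid and myeloid progenitor character. Members were taken by gene symbol: probe sets with a single symbol starting with NDUFA, NDUFB, NDUFC, NDUFS, NDUFV, UQCR, COX4, COX5, COX6, COX7 or COX8. This gave 53 of the 11963 genes on the array, 34 by the NDUF prefixes (complex I), 6 by UQCR (complex III) and 13 by COX (complex IV). They are read by 70 probe sets. The 11 genes with several probe sets are represented by the one with the highest mean, and another is given where its difference departs from that one by more than 0.5 on the log2 scale. The NDUF prefixes also caught 5 assembly factors (NDUFAF1, NDUFAF3, NDUFAF4, NDUFAF5 and NDUFAF7), which build complex I without being part of it, and NDUFB2-AS1, an antisense RNA, leaving 28 subunit genes of complex I. COX7A2L, a factor that joins complexes III and IV, was kept with complex IV. UQCRFS1, NDUFA4 and the isoform genes COX4I2, COX6B2, COX7B2 and COX8C were not analysed here, and probe sets of NDUFS5, NDUFS8, NDUFC2 and UQCRH carry a second symbol and were left out.

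The 5 groups were cells expressing DbSCL, a form of the transcription factor SCL that cannot bind DNA, from a GFP-marked MSCV retrovirus and stimulated with Steel factor (SF, the ligand of c-Kit) or with erythropoietin (Epo), and cells carrying the GFP-marked MSCV vector alone and stimulated with SF, with Epo or with GM-CSF. All groups share the line, its maintenance in 10% fetal calf serum with GM-CSF at 5 ng/mL, overnight withdrawal of growth factor, and 6 h of stimulation, with GM-CSF at 5 ng/mL or SF at 20 ng/mL (no dose is given for Epo). There was no unstimulated group, the cells keep their own SCL gene, and the labels do not say whether GFP-positive cells were sorted or whether a population is 1 clone. Each group is 1 array, so the differences below compare one array with another, have no replicate check, and no p-value was computed.

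Complex I takes electrons from NADH and passes them to ubiquinone, complex III passes them on to cytochrome c, and complex IV hands them to oxygen, and all of them pump protons across the inner mitochondrial membrane. Their catalytic centres are built from subunits encoded in mitochondrial DNA together with nuclear subunits, and the remaining nuclear subunits are accessory proteins needed for assembly, stability or regulation. In erythroid cells mitochondria also supply haem, and they are cleared as red cells mature. The 13 subunits encoded in mitochondrial DNA had no named probe set, so only the nuclear side of the chain is described.

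Values are log2 signals as deposited. A floor was set at the 40th percentile of all signals, 4.45, and lower values were raised to it. Genes at or below the floor on both arrays of a comparison were left out of it. Of the 53 genes 46 were above the floor on every array, 4 on some and 3 on none. Of all genes 66.19% were above it on every array. The spread of a single difference was estimated without replicates, from the DbSCL difference under SF minus that under Epo. Over genes above the floor on every array it was 0.13 to 0.24 on the log2 scale and largest for the brightest genes. A difference of 1.5-fold or more was counted. Of the 16 genes fixed as TF-1 markers 12 had a named probe set, and each was above the floor everywhere, among them GATA1, KLF1, TAL1, KIT and EPOR. Of markers of other cell types, 4 of 4 for T cells (4.74 to 6.74), 1 of 3 for B cells, 1 of 3 for monocytes, 3 of 4 for fibroblasts and 1 of 4 for epithelium were above the floor on every array, and CD14, FCGR1A, EPCAM and CDH1 were below it on every array. The hybridization controls read 10.57 on the DbSCL SF array, 9.78 on DbSCL Epo, 10.02 on vector SF, 9.58 on vector Epo and 10.53 on vector GM-CSF. For beta-actin, the 3' probe set exceeded the 5' one by 3.33, 3.01, 1.89, 2.74 and 2.63 in that order. The part of either in the results was not tested. Deciles of signal were taken over the 7918 genes above the floor on every array, and across these the differences also ran with signal. For Epo minus GM-CSF the median over genes in the lowest decile of signal was −0.12 and in the highest 0.30. Since 40 of the 46 genes lie in the 3 highest deciles, the median or share of all 2376 genes there is given beside each comparison.

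Under Epo compared with GM-CSF in vector cells, 6 of 30 complex I genes and both core proteins of complex III were at least 1.5-fold higher, and no complex IV gene was. Of 49 compared genes, 8 (16.3%) were at least 1.5-fold higher and 0 lower, where 13.2% of all compared genes were higher and 2.45% lower. That share is near the background of all genes, and among genes in the 3 highest deciles of signal 6 of 40 members and 25.9% of all genes were higher. None reached 2-fold, as 3.46% of all genes did upward and 0.117% downward. The median difference was 0.32 for the 30 compared complex I genes, 0.12 for the 6 of complex III and 0.02 for the 13 of complex IV, against 0.28 for all genes in the 3 highest deciles of signal and 0.00 for all compared genes. In complex I 24 of the 30 were above 0. These 30 include assembly factors. For the 27 compared subunit genes of complex I alone the median was 0.26, and 5 were at least 1.5-fold higher. The direction depended on the scaling: after quantile normalization the median of all members was −0.06, that of complex I 0.11, that of complex III −0.22 and that of complex IV −0.15, and of the 8 counted genes NDUFA5, NDUFA10, NDUFS1 and NDUFAF4 stayed past 1.5-fold.

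The largest difference was that of NDUFA5, an accessory subunit of the arm of complex I that faces the matrix. Its signal was 6.89 under Epo, against 5.92 under GM-CSF, a difference of 0.97 or 1.96-fold. Its other probe set was below the floor on all arrays, and with the mean of both the difference was 0.20. That mean fell below the floor under GM-CSF and was raised to it, so the floor sets the size of this value. NDUFA10, another accessory subunit, had 8.54 under Epo and 7.60 under GM-CSF (0.94). NDUFS1, the largest core subunit and a carrier of iron-sulphur clusters, had 6.79 and 5.85 in the same order (0.94). NDUFS3, a core subunit of the ubiquinone-reducing module, had 8.56 under Epo and 7.87 under GM-CSF (0.69). Core and accessory genes are therefore both among the counted ones, and NDUFB5 (0.82), an accessory subunit of the membrane arm, and the assembly factor NDUFAF4 (0.85) complete the 6.

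The other core genes of complex I differed less. NDUFV1, which holds the site that binds NADH, read 8.82 under Epo and 8.44 under GM-CSF (0.38), NDUFV2 read 7.25 and 7.16 (0.09) and NDUFS7 6.52 and 6.55 (−0.03). NDUFS6, an accessory subunit needed late in assembly, was the lowest of complex I (−0.43), with 10.16 under Epo and 10.59 under GM-CSF. It was lower on the vector Epo array than on all 4 others, which read 10.59 to 10.71. The assembly factors NDUFAF1 (0.47) and NDUFAF3 (0.37) were higher under Epo too, short of 1.5-fold, while NDUFAF5 and NDUFAF7 were below the floor on every array. NDUFAB1, the acyl carrier protein of mitochondria and also a subunit of complex I, differed by 0.27.

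In complex III the counted genes were UQCRC2 and UQCRC1, the core proteins, which carry no redox centre. UQCRC2 had 9.44 under Epo and 8.57 under GM-CSF (0.88, or 1.84-fold), and UQCRC1 had 9.26 and 8.60 in that order (0.66). The 4 small subunits lay between −0.03 (UQCR10) and 0.14 (UQCRQ). The size for UQCRC2 depends on the probe set: its other one read 8.79 under Epo and 6.53 under GM-CSF, a difference of 2.26. In complex IV COX5A was highest (0.32) and COX5B lowest (−0.15), with COX4I1 at −0.08. Another COX5B probe set was lower by much more, with 6.83 under Epo and 8.55 under GM-CSF (−1.72). That probe set read 8.45 on DbSCL SF, 7.68 on DbSCL Epo and 7.71 on vector SF, so it was high on the same arrays, vector GM-CSF and DbSCL SF, on which the hybridization controls were high. Their part in it was not tested.

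**Figure D1:**
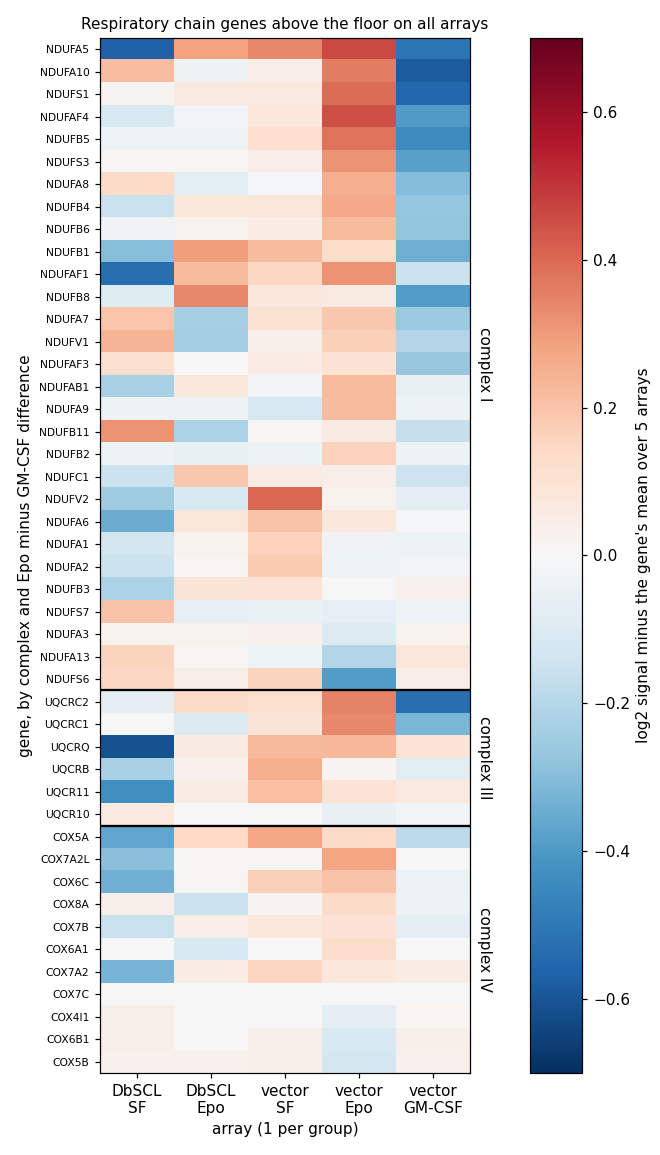
Log2 signal minus the gene's own mean over the 5 arrays (colour scale, red high and blue low) for the 46 genes that were above the floor everywhere, with genes down the page by complex and arrays across, 1 per group. Vector Epo was red and vector GM-CSF blue for the upper complex I genes and for UQCRC1 and UQCRC2, DbSCL SF was blue for NDUFA5, UQCRQ and COX5A, and COX7C and COX4I1 were nearly flat.

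Under SF compared with GM-CSF in vector cells, 4 of 48 genes (8.33%) were at least 1.5-fold higher and 0 lower, where 6.9% of all genes were higher and 1.29% lower. Among genes in the 3 highest deciles of signal 2 of 40 members and 11.9% of all genes were higher. This comparison uses the same GM-CSF array as the one before. No member reached 2-fold, a size reached by 0.573% of all genes upward and 0.0234% downward. The counted genes were NDUFA5 with 6.76 under SF and 5.92 under GM-CSF (0.85), UQCRC2 with 9.21 and 8.57 (0.64), NDUFA10 with 8.23 and 7.60 (0.63) and NDUFS1 with 6.46 and 5.85 (0.62). The second UQCRC2 probe set gave 1.32, and after quantile normalization NDUFA5 (0.80) and NDUFS1 (0.60) stayed past 1.5-fold. Medians were 0.29 for complex I, 0.24 for complex III and 0.01 for complex IV, against 0.22 for all genes in the 3 highest deciles of signal, and after quantile normalization they were 0.09, 0.00 and −0.12. For the 26 compared subunit genes of complex I alone the median as deposited was 0.23.

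Below the counted genes, NDUFB1 (0.57) and NDUFB5 (0.56) of the membrane arm came next, and then NDUFAF4 (0.47) and the core subunit NDUFV2 (0.47), whose highest signal, 7.63, was on the vector SF array. NDUFS3 gave 0.42, NDUFV1 0.24 and NDUFS7 −0.01. The lowest of complex I was NDUFA13 (−0.11), and COX5A was the highest of complex IV (0.45), followed by COX6C (0.21). COX7A1, a heart and muscle isoform, was the lowest (−0.13). It was above the floor on the GM-CSF array alone, and COX6A2, the other muscle isoform, on that array and on DbSCL SF, so the floor sets their differences. The dimmest COX5B probe set gave −0.83, where the brightest gave 0.01. UQCR10 (0.02) and UQCRC2 bounded complex III, with UQCRC1 at 0.41.

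Between SF and Epo in vector cells none of 47 genes was 1.5-fold different, where 0.349% of all genes were higher and 1.15% lower under SF. At 2-fold these shares were 0.012% and 0.0241%. Medians were −0.06 for complex I, 0.02 for complex III and 0.00 for complex IV, against −0.05 for all genes in the 3 highest deciles. NDUFS6 was highest under SF relative to Epo (0.55), with 10.71 and 10.16, followed by NDUFV2 (0.38), and NDUFAF4 was lowest (−0.38), with 7.23 under SF and 7.61 under Epo. UQCRB (0.23), UQCRC1 (−0.25), COX5B (0.16) and COX7A2L (−0.27) bounded the other complexes. Among further core genes NDUFS1 gave −0.32 and NDUFS3 −0.27. Other probe sets did pass 1.5-fold here: the dimmest of COX5B gave 0.88, and the second of UQCRC2 −0.94 where the brightest gave −0.24.

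The comparison of DbSCL with vector cells asked what changes when SCL function is disturbed, and under SF 6 of 48 compared genes (12.5%) were at least 1.5-fold lower with 0 higher. In sign, 30 of the 48 were below 0 and 15 above, and of all 8450 compared genes 3513 were below 0 and 3940 above. Across genes above the floor on every array this difference ran with signal. Its median was 0.04 in the lowest decile and −0.06 in the highest. Signs were not counted for the 3 highest deciles, where most members lie. Among all genes 3.68% were lower and 1.42% higher, and among the 2376 genes of the 3 highest deciles of signal 5.68% were lower. The genes lower by 1.5-fold were spread over all 3 complexes, with 3 of complex I, 2 of complex III and 1 of complex IV. No member was 2-fold lower, as 0.343% of all genes were, and none 2-fold higher, as 0.0118% were. After quantile normalization 3 genes stayed past 1.5-fold: NDUFA5, UQCRQ and NDUFAF1. The medians were −0.06 for complex I, −0.33 for complex III and 0.00 for complex IV, against −0.05 for all genes in the 3 highest deciles.

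NDUFA5 was lowest, with 5.86 on DbSCL SF and 6.76 on vector SF (−0.90, or 1.86-fold), and −0.10 with the mean of its probe sets. That mean fell below the floor on DbSCL SF and was raised to it. UQCRQ, a small subunit that contributes to ubiquinone binding in complex III, had 8.62 on DbSCL SF, 9.29 on DbSCL Epo, 9.46 on vector SF, 9.46 on vector Epo and 9.33 on vector GM-CSF. It was thus low on the DbSCL SF array alone, by 0.84 against vector SF (1.79-fold) and by at least 0.67 against every other array. UQCR11, the smallest subunit of the complex, was lowest on the same array, with 7.93 on DbSCL SF, 8.41 on DbSCL Epo, 8.57 on vector SF, 8.45 on vector Epo and 8.42 on vector GM-CSF, a difference of −0.64 under SF. UQCRB, another small subunit, gave −0.48 there, and UQCR10 0.07, so the small subunits did not all go the same way. The core proteins, which were the complex III genes counted under Epo, gave −0.18 (UQCRC2) and −0.09 (UQCRC1).

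In complex I the assembly factor NDUFAF1 had 6.59 on DbSCL SF and 7.26 on vector SF (−0.67), and NDUFV2 had 6.98 and 7.63 (−0.65). NDUFA6 (−0.55), which was lowest on DbSCL SF (8.66) and highest on vector SF (9.21), and NDUFB1 (−0.52) were short of 1.5-fold. NDUFB11 was the highest (0.31), and among core genes NDUFS7 (0.24) and NDUFV1 (0.20) were also above 0, with NDUFS3 at −0.03 and NDUFS1 at −0.05. In complex IV COX5A, a subunit on the matrix side, was 9.55 on DbSCL SF, 10.05 on DbSCL Epo, 10.18 on vector SF, 10.05 on vector Epo and 9.73 on vector GM-CSF, a difference of −0.64 under SF. COX6C (−0.50) and COX7A2 (−0.48) were next. COX4I1, COX5B, COX6A1, COX6B1, COX7C and COX8A lay between −0.01 and 0.04. For COX5B this is the brightest probe set, and others gave −0.60 (8.02 on DbSCL SF and 8.62 on vector SF) and 0.74 (8.45 and 7.71), past 1.5-fold in opposite directions. The gap between the 3' and 5' probe sets of beta-actin was highest on DbSCL SF (3.33) and lowest on vector SF (1.89), the arrays compared here. Its part in the result was not tested.

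**Figure D2:**
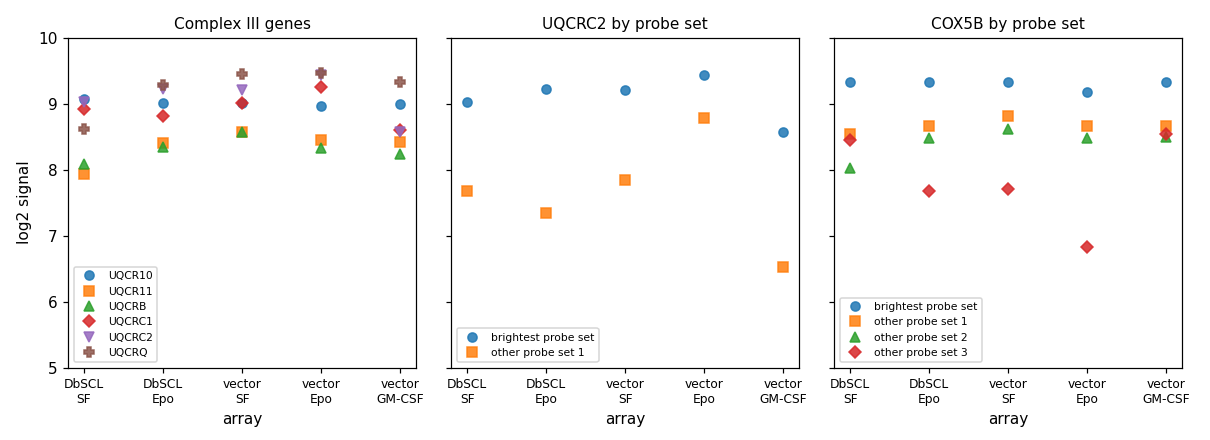
Log2 signal (vertical axis) on each array (horizontal axis) for the 6 complex III genes (left) and for every probe set of UQCRC2 (middle) and COX5B (right), 1 point per array. UQCRQ and UQCR11 were lowest on DbSCL SF, UQCRC1 and UQCRC2 lowest on vector GM-CSF, and the second UQCRC2 probe set and the dimmest COX5B probe set ranged over more than 1.5 log2 units in opposite directions.

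Promoters of respiratory chain genes are known for sites of the factor NRF1, of the ETS factor GABP and of YY1. Windows from 250 bases before to 30 after the RefSeq start (GRCh38.p14) were found for 49 of the 53 genes and searched on both strands for the palindromic NRF1 consensus, CCGGAAG (ETS) and ANATGGCG (YY1). The NRF1 letters were in 8 of 49 windows (16.33%, against 6.2% of 27305 promoters), the ETS letters in 13 (26.53% against 10.34%) and the YY1 letters in 8 (16.33% against 3.88%). The 27305 promoters are 1 per gene symbol and were not limited to genes on the array or above the floor, so they are an unlike set. By complex, NRF1 matches were in 5 of 33 windows of complex I, 3 of 5 of complex III and 0 of 11 of complex IV. ETS matches were in 6, 2 and 5 and YY1 matches in 7, 0 and 1. A match describes letters in a window and shows no binding. The windows of NDUFA5, NDUFA10, UQCRC2, NDUFAF1, NDUFV2 and COX5A, genes with large differences, hold 0 matches of any of these motifs. Those of NDUFS1 (1 ETS and 1 YY1 match) and NDUFAF4 (1 ETS match), also counted under Epo, do hold matches. The 5 windows below were chosen from genes with a match, which capitals mark. NDUFS3 and UQCRC1 were counted under Epo, UQCRQ and UQCR11 with DbSCL under SF, and COX5B is the gene whose probe sets disagree.
NDUFS3, chr11:47578824-47579103, plus strand: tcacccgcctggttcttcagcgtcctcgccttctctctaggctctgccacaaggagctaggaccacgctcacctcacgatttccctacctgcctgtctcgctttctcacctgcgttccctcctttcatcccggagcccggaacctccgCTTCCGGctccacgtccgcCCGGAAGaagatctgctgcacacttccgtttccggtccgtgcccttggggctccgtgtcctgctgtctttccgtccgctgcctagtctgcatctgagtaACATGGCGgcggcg
UQCRC1, chr3:48609617-48609896, minus strand: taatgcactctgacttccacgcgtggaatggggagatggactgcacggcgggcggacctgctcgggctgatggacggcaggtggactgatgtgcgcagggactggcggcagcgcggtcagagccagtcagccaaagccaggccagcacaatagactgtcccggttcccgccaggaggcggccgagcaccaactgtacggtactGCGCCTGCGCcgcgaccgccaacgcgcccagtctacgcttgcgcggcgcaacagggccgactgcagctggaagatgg
UQCRQ, chr5:132866392-132866671, plus strand: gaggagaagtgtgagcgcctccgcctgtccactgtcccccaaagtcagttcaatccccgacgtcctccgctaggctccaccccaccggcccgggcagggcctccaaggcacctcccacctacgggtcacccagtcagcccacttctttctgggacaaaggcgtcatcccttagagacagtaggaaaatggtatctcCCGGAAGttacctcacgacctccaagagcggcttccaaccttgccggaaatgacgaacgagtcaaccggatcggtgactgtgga
UQCR11, chr19:1605433-1605712, minus strand: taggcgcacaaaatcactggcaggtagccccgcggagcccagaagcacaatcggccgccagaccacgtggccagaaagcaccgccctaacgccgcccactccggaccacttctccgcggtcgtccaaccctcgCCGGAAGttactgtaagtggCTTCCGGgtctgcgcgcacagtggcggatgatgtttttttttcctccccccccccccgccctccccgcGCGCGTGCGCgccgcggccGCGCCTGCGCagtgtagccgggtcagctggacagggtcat
COX5B, chr2:97645812-97646091, plus strand: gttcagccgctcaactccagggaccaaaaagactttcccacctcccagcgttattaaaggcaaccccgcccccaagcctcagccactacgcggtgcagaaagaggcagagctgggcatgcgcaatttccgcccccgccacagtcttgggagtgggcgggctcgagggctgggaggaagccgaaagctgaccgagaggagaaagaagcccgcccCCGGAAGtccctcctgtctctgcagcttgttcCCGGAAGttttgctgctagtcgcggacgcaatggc
NDUFS3 holds 2 ETS matches and 1 YY1 match, UQCRC1 1 NRF1 match, UQCRQ 1 ETS match, UQCR11 2 NRF1 and 2 ETS matches and COX5B 2 ETS matches. UQCRC1 and UQCR11 share the NRF1 letters. Under Epo compared with GM-CSF, UQCRC1 gave 0.66 and UQCR11 0.03. Whether matches go with differences was not tested.

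Under Epo, DbSCL and vector cells differed by less than 1.5-fold in all 47 compared genes, where 0.694% of all genes were higher and 2.78% lower, and at 2-fold 0.0957% and 0.275%. The largest difference was that of NDUFAF4 in complex I. NDUFAF4 had 7.13 on DbSCL Epo and 7.61 on vector Epo (−0.47), NDUFA7, an accessory subunit, had 6.68 and 7.10 (−0.42), and NDUFB5 had 9.26 and 9.67 (−0.41). NDUFV1 gave −0.40, NDUFS1 −0.32, NDUFS3 −0.31, NDUFV2 −0.13 and NDUFS7 0.00. NDUFS6 was the highest (0.43), with 10.59 on DbSCL Epo and 10.16 on vector Epo. In complex III UQCRC1 was lowest (−0.44), with 8.81 on DbSCL Epo and 9.26 on vector Epo, and UQCR10 highest (0.05). The second UQCRC2 probe set gave −1.45 where the brightest gave −0.21. In complex IV COX8A was lowest (−0.29) and COX5B highest (0.15, with 0.85 in its dimmest probe set), and COX5A, counted under SF, gave 0.00. Medians were −0.14, −0.11 and −0.02 for complexes I, III and IV, against −0.07 for all genes in the 3 highest deciles. This comparison shares no array with that under SF. Of 46 genes compared in both, 18 (39.13%) were lower with DbSCL under both cytokines and 4 (8.7%) higher, against 25.05% and 23.59% of all 8272 genes compared in both. A further 12 (26.09%, against 12.98%) were lower under SF and higher under Epo, and 8 (17.39%, against 15.91%) the reverse, so 20 had opposite signs. The remaining 4 of the 46, and 1859 of all 8272, had a difference of exactly 0 in a comparison. They stay in the totals of these shares, so ties lower the shares of all genes more. These shares were not computed for all genes in the 3 highest deciles, whose medians were −0.05 under SF and −0.07 under Epo. The 6 genes counted under SF gave −0.18 (NDUFA5), −0.18 (UQCRQ), −0.09 (NDUFAF1), −0.13 (NDUFV2), −0.05 (UQCR11) and 0.00 (COX5A) under Epo.

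**Figure D3:**
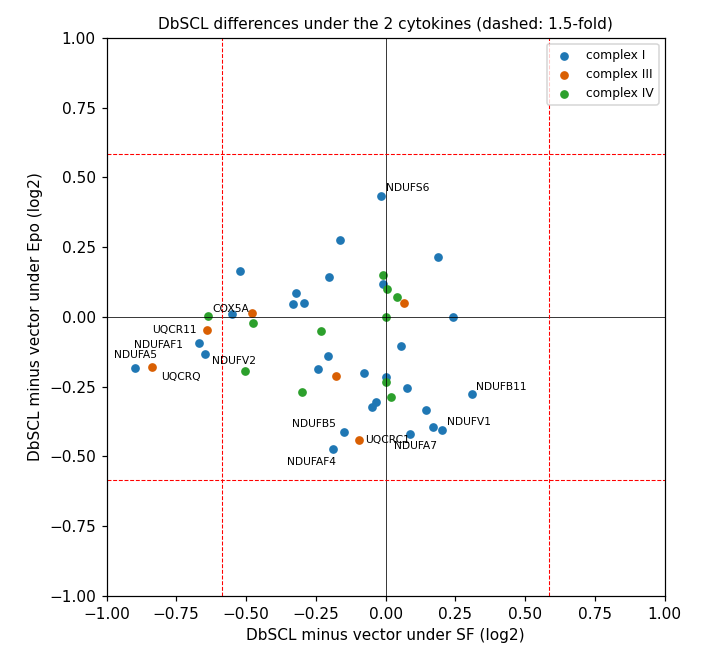
Log2 difference of DbSCL minus vector under SF (horizontal axis) and under Epo (vertical axis) for the 46 genes compared in both, coloured by complex, with dashed lines at 1.5-fold. The 6 genes left of the dashed line lie between −0.18 and 0.00 on the vertical axis, and no gene passes the line under Epo.

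Between SF and Epo in DbSCL cells, 4 of 49 genes (8.16%) were at least 1.5-fold lower under SF and 0 higher, against 2.8% and 0.909% of all genes, and at 2-fold none passed, against 0.201% lower and 0.0236% higher. These were NDUFA5 with 5.86 under SF and 6.71 under Epo (−0.84), NDUFAF1 with 6.59 and 7.34 (−0.75), UQCRQ with 8.62 and 9.29 (−0.67) and NDUFB1 with 8.30 and 8.89 (−0.59, and −0.48 after quantile normalization). The comparison uses the same DbSCL SF array as that of DbSCL with vector. NDUFB11 (0.54, with 6.99 and 6.45) and NDUFV1 (0.47, with 8.88 and 8.41) were the highest of complex I, UQCRC1 (0.10) of complex III and COX6A2 (0.25, close to the floor) of complex IV, where COX5A was lowest (−0.50). Medians were −0.05, −0.23 and 0.00 for complexes I, III and IV, against −0.04 for all genes in the 3 highest deciles, of which 4.29% were 1.5-fold lower. Other probe sets gave 0.77 for COX5B (brightest 0.00), 0.11 for NDUFB8 (−0.42) and 0.33 for UQCRC2 (−0.20). NDUFS1 (−0.05), NDUFS3 (0.00), NDUFS7 (0.26) and NDUFV2 (−0.14) are the remaining core genes.

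**Figure D4:**
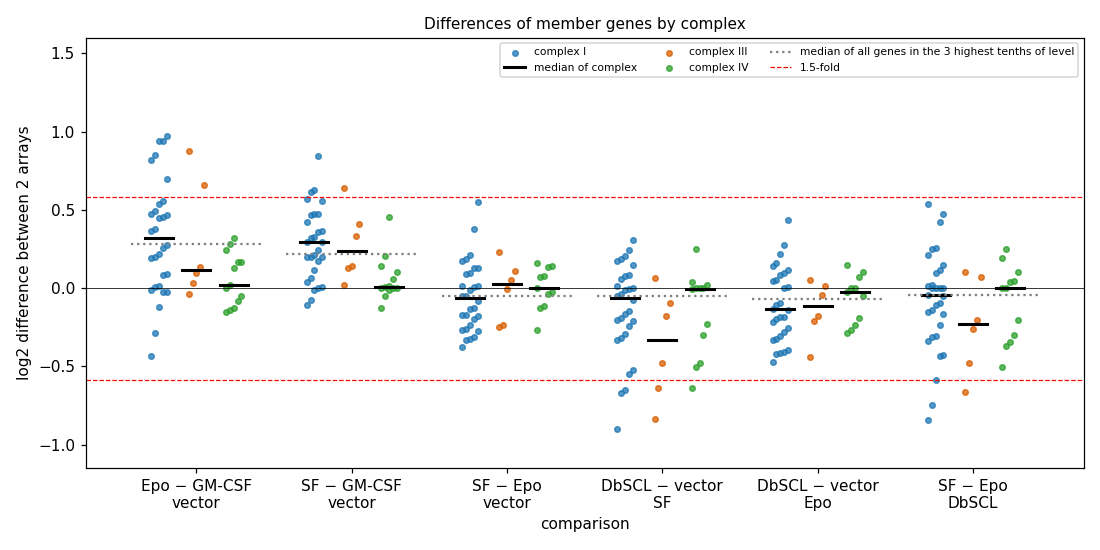
Log2 differences (vertical axis) of the compared genes in the 6 comparisons (horizontal axis), 1 point per gene, coloured by complex, with the median of each complex (black bar), the median of all genes in the 3 highest deciles of signal (dotted) and 1.5-fold (dashed). Complex IV had medians of 0.02 and 0.01 in the comparisons with GM-CSF as deposited (−0.15 and −0.12 after quantile normalization), and complex III was lowest for DbSCL under SF, at −0.33.

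Among the 46 genes above the floor on every array, 17 (36.96%) had their single lowest value on DbSCL SF, against 18.2% of all 7918 such genes and 20.66% of those in the 3 highest deciles. On vector GM-CSF 14 (30.43%) were lowest, against 30.9% and 52.36%. The lowest value fell on vector GM-CSF for 12 of 29 complex I genes, 2 of 6 of complex III and 0 of 11 of complex IV, and on DbSCL SF for 9, 3 and 5. On vector Epo 21 genes (45.65%) were highest, against 26.94% of all genes and 45.33% of those in the 3 highest deciles. On vector GM-CSF 0 were highest, against 26.35% and 8.84%, but 17 were after quantile normalization. Some genes hardly varied at all: COX7C read 9.91 on all 5 arrays, and COX4I1 lay between 9.79 and 9.90. Exactly equal values on several arrays, seen for 19 of the 53 genes and 56.88% of all genes, were present in the deposited values, so a difference of 0 can be such a tie. Another COX7C probe set gave −0.53 for DbSCL minus vector under SF.

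Neighbouring steps of the pathway were looked at from lists written with earlier results of these data known. For Epo minus GM-CSF 13.2% of all genes and 25.9% of those in the 3 highest deciles of signal were 1.5-fold higher. This held for SDHD (1.25), 1 of 3 complex II genes, and for CYC1 (1.06), the cytochrome c1 of complex III. It also held for 5 of 16 complex V genes (31.2%). None of the lists in this paragraph was recomputed after quantile normalization or loess. CYC1 had 10.10 under Epo and 9.04 under GM-CSF, and it was 9.25 on DbSCL Epo, 0.85 below vector Epo. Of complex V, the ATP synthase, the catalytic beta subunit ATP5F1B (1.03) and the alpha subunit ATP5F1A (0.79) were the highest, and the inhibitor ATP5IF1 (−0.60) was lowest. Under DbSCL with SF 2 of the 16 were 1.5-fold lower, ATP5MG (−0.65) and ATP5PF (−0.62). Of all genes 3.68% were lower there, and 5.68% of those in the 3 highest deciles. Under DbSCL with Epo 1 of the 16 was lower, ATP5F1B (−0.72), against 2.78% and 5.39%. Of 12 other assembly factors compared, 5 were 1.5-fold higher under Epo than under GM-CSF: COX11 (1.51), TTC19 (1.45), LRPPRC (1.23), TMEM126B (1.10) and BCS1L (0.89). COX11 delivers copper to complex IV and BCS1L inserts the Rieske protein into complex III. Of 11 citric acid cycle genes 4 were, with SUCLG2 (1.63, against the floor under GM-CSF) and SUCLA2 (1.37) highest. Among 12 regulators of mitochondrial biogenesis TFB2M (0.88) and YY1 (0.76) were higher and ESRRA (−0.88) lower, against 13.2% and 2.45% of all genes. ESRRA, a nuclear receptor that drives respiratory genes, was 7.27 on DbSCL SF and 6.61 on vector SF (0.66), while the factor gene NRF1 lay between 5.27 and 5.34 on all arrays. The GABPA and PPARGC1A genes were below the floor on every array.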

How the data were processed

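RNA of 5 TF-1 cultures was read on Affymetrix arrays after small-sample target labelling, per the labels. The authors deposited 1 log2 signal per probe set and array (22283 probe sets, 2.08 to 13.77). The log2 unit was read from the values, and the summary method, normalization and software are not given in the sources used here. Column medians lay within 0.09, so the values were used as deposited. Probe sets with 1 gene symbol in the platform annotation (19071) were kept, and the probe set with the highest mean stood for a gene.

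The floor, the 1.5-fold count and the lists are described with the results. The members and lists were chosen with earlier results of these data known. Named were genes past 1.5-fold, the extremes of each complex, and core, isoform and assembly genes. With 1 array per group no test was made: an additive fit would leave 1 residual degree of freedom and was not run. The number of arrays limits the precision. The counting step was tested on simulated data with independent noise of fixed size, without the ties of the deposited values. This checks the code and not the counts of these arrays. Python 3.11.15 with pandas 2.3.3 and R 4.3.3 with limma 3.58.1 (alternative normalizations) were used. Alternatives were quantile, loess and median normalization, other probe set rules, other floors, subunits only and 2-fold.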

Additional observations from a re-analysis of the deposited data

Results flagged for a closer look

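NDUFB11, a small accessory subunit of the membrane arm of complex I, was picked by a rule on the DbSCL minus vector differences. The rule asked for opposite signs under the 2 cytokines, each beyond 0.24, the largest spread of a single difference. NDUFB11 gave 0.31 under SF and −0.28 under Epo. Its signal was 6.99 on DbSCL SF and 6.68 on vector SF, and 6.45 on DbSCL Epo and 6.73 on vector Epo. The difference under SF minus that under Epo was 0.59 for NDUFB11. Of the complex I genes with opposite signs, NDUFB1 (−0.69) and NDUFV1 (0.61) had larger ones, which the rule did not pick. Each value is a single array, and the difference between the cytokines was not tested.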

How the results depend on the processing

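No paired analysis was possible because each group is 1 array. The DbSCL and vector arrays share a cytokine, and their differences under SF and Epo are given side by side and were not pooled. No array could be left out, since each comparison has 1 on either side. Medians changed sign with the scaling. For Epo minus GM-CSF the median of all members was 0.19 as deposited and −0.057 after quantile normalization, and that of complex III was 0.12 as deposited, −0.22 after quantile normalization, −0.15 after loess and 0.50 without probe sets of the _x_at and _s_at kinds. For SF minus GM-CSF the members' median was 0.20 as deposited, 0.0062 after quantile normalization and −0.0062 after loess, and that of complex III 0.24, 0.0024 and 0.03. For DbSCL under Epo, complex III was −0.11 as deposited and 0.05 after quantile normalization. Complex IV was −0.15 and −0.12 after quantile normalization against GM-CSF for Epo and SF. For DbSCL under SF complex III stayed below 0, at −0.33, −0.21 and −0.25 as deposited, after quantile normalization and after loess. The counts at 1.5-fold were 8, 4, 0, 6, 0 and 4 in the order Epo minus GM-CSF, SF minus GM-CSF, SF minus Epo in vector cells, DbSCL under SF, DbSCL under Epo and SF minus Epo in DbSCL cells. Quantile normalization gave 5 (4 higher, 1 lower), 2, 1, 3 and 1 for all but the last, and loess 2 for SF minus GM-CSF and 1 for SF minus Epo in vector cells. For SF minus Epo in vector cells and for DbSCL under Epo, the mean of all probe sets gave 1 each and leaving out those probe set kinds 2 each. At 2-fold all 6 counts were 0. Of 46 genes, 14 were lowest on vector GM-CSF (22 with median centring). None was highest there as deposited, against 17 after quantile normalization, 20 after loess, 2 with mean probe sets, 1 without those kinds and 1 with no floor. On vector Epo 21 were highest (12 after quantile normalization). For the 22 counted gene differences, 151 of 171 recomputed values moved by no more than 0.24, the largest spread of a single difference, and 20 moved further, with no sign change. NDUFA5 for DbSCL under SF became −0.10 with the mean of its probe sets. The other probe set is below the floor on every array, and on DbSCL SF the mean was too and was raised to the floor. UQCRC2 under Epo became 2.26 without those probe set kinds. The cause of the other moves was not tested.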
